A study of Drosophila melanogaster with 46 samples.

Results

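The genes described here are those of phototransduction and of the visual cycle in the fruit fly *Drosophila melanogaster*. They were chosen as a list of 33 genes with a known part in light detection, and each was matched to the gene symbol of the array's probe table through probe sets that name 1 gene, the brightest standing for a gene with several. Of the 33 genes 23 were measured, out of 11981 genes with such a probe set and 18952 probe sets in all. Of the 23 genes 20 act in the eye itself (here the eye genes), and 3, ninaB, ninaD and santa-maria, supply the carotenoid from which the visual pigment is made and are described apart. Ggamma30A was left out because its probe sets also name another gene, and the rhodopsin genes ninaE, Rh2, Rh3, Rh4, Rh5 and Rh6, and norpA, ninaC and ninaA, were not analysed here. The array lists CdsA under the symbol Cds.

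Each of the 46 arrays read RNA from a pool of 5 whole virgin females, so eye RNA was a part of whole-body RNA. The flies came from a single SR line, long-lived and chosen out of several lines selected to resist starvation, and from a single control (C) line, so a difference between SR and C flies is a difference between 2 lines. Larvae of both lines grew on standard medium, and adults were kept on food with yeast and sugar at a relative concentration of 0.5 (malnutrition), 2 (optimal food) or 5 (overfeeding). Middle-aged flies were taken with 90% of the cohort alive and old flies with 10% alive, so flies of an age class were not of the same number of days. The 12 groups of line, diet and age held 4 arrays each, with 3 for old C flies under malnutrition and under overfeeding. In whole-body RNA, fewer eye cells and less RNA per eye cell cannot be told apart.

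In the fly photoreceptor a photon converts rhodopsin, which activates a Gq protein and through it phospholipase C, and the breakdown of a membrane phosphoinositide opens the TRP and TRPL cation channels. Arrestins and a calcium-dependent phosphatase return rhodopsin to its resting state, and a lipid cycle of kinases, transfer proteins and synthases restores the phosphoinositide. The chromophore is made from dietary carotenoid, which is taken up by scavenger receptors, cleaved by an oxygenase and processed in part in the pigment cells around the photoreceptors.

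Values are log2 expression values on the scale of the deposited table, levels of different genes are not compared, and every difference below is a log2 difference with its standard error from a limma fit over all 46 arrays, called at an adjusted p under 0.05 over all 18952 probe sets. Counts of eye genes at an unadjusted p under 0.05 stand without a share of all probe sets, which was not counted at that threshold. The percentages of probe sets called beside them are at an adjusted p under 0.05. The median log2 value per array lay between 5.04 and 5.27, and arrays of the same group correlated at 0.974 to 0.998. A list of 20 neuronal genes measured out of 22, for RNA of the nervous system as a whole, was followed beside the eye genes, with 15 of 16 germline genes and 10 of 13 gut genes. The mean of the 20 eye genes was highest on malnutrition. It ran from 8.40 to 9.03 over the arrays of middle-aged C flies and from 8.41 to 8.73 in old C flies, and from 8.25 to 8.49 and from 8.18 to 8.89 in middle-aged and old SR flies. On optimal food it ran from 7.62 to 7.68 and from 7.85 to 8.30 in middle-aged and old C flies, and from 7.98 to 8.28 and from 7.65 to 8.07 in middle-aged and old SR flies. On overfeeding the array values lay between 7.34 and 8.06 over both lines and ages. The neuronal mean moved in the same order of diets, from 7.36 to 8.25 over the arrays on malnutrition, from 6.32 to 7.13 on optimal food and from 5.88 to 6.78 on overfeeding. In 10 of the 12 groups the array with the highest mean of the eye genes was also the highest for the neuronal list.

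**Figure D1:**
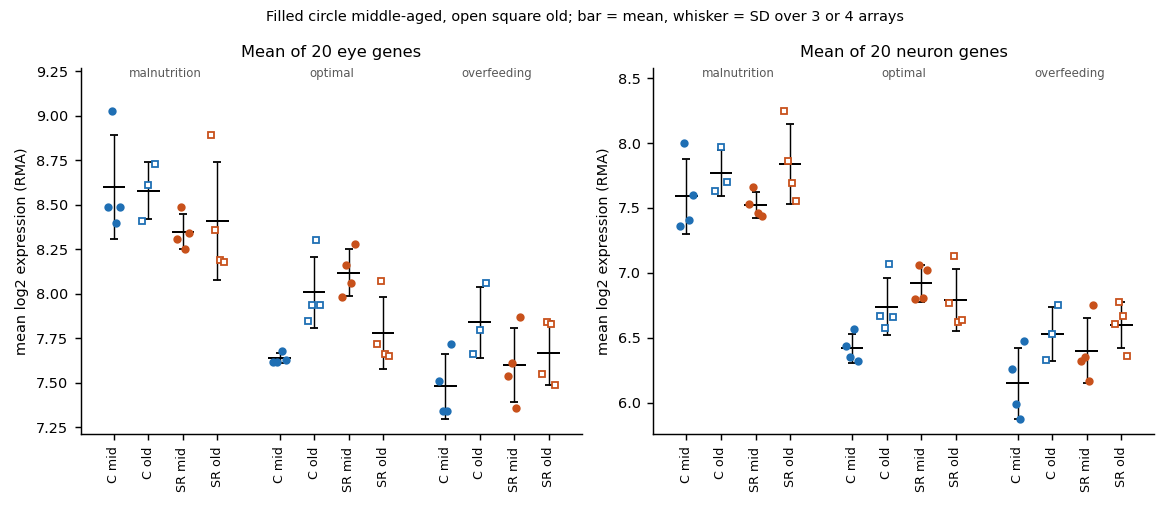
Mean log2 expression of the 20 measured eye genes and of the 20 neuronal genes in each of the 46 arrays (points), with the group mean, by line, diet and age. Both lists were highest on malnutrition, where no array of C flies had an eye mean under 8.40 and no array of C flies on optimal food had one over 8.30.

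**Figure D2:**
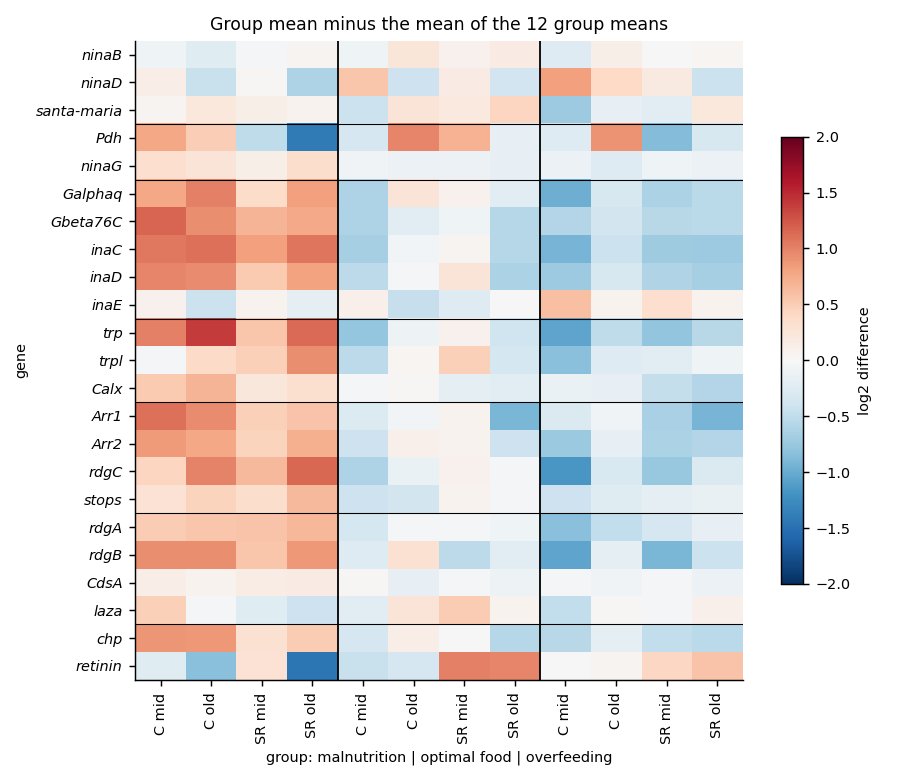
Log2 expression of each of the 23 measured genes in each of the 12 groups, given as the group mean minus the mean of the 12 group means of that gene. Most eye genes were above their own average in the 4 malnutrition groups, while Pdh and retinin were below it in old SR flies on malnutrition.

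Malnutrition was compared with optimal food within each line and age to ask how the visual genes follow poor food. Averaged over lines and ages, 16 of the 20 eye genes rose and 2 fell, with a median difference of 0.77 against 0.00 over all probe sets, whereas with arrays centred on the neuronal list 3 were higher and 10 lower, with a median of −0.19. Over all probe sets 18.2% were called higher and 13.5% lower in this comparison. Of the neuronal list 19 of 20 genes rose, with a median of 1.01, and all 10 gut genes fell, with a median of −1.37 (gut mean 9.34 to 9.92 in old C flies on malnutrition and 10.77 to 11.80 in those on optimal food). Leaving out any 1 array ended none of these 18 calls. The part of the neuronal and gut RNA in the rise of the eye genes was not tested beyond the centring. That centring moved the median of all probe sets to −0.96 and the share of calls that were higher from 57.4% to 0.815%.

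The 5 measured genes of the G protein cascade had the largest median, 1.05, and 4 of them rose on average. With arrays centred on the neuronal list Galphaq gave −0.10 and was not called, beside −0.96 for the median probe set. In middle-aged C flies inaC, the eye protein kinase C, read 6.63, 6.45, 6.80 and 6.31 on optimal food and 8.17, 8.74, 7.88 and 8.23 on malnutrition. The 2 groups did not overlap, and the second array on malnutrition stood highest. The difference was 1.71 ± 0.19, or 3.27-fold (adjusted p = 4.17e-08), and the average over lines and ages was 1.32 ± 0.10 (adjusted p = 6.08e-14). Gbeta76C, the eye's G protein beta subunit, read 8.10 to 8.26 in middle-aged C flies on optimal food and 9.61 to 10.46 on malnutrition, a rise of 1.78 ± 0.18 (adjusted p = 6.27e-09). Its average rise was 1.25 ± 0.09 (adjusted p = 6.7e-14). inaD, the PDZ scaffold that holds the channel, the kinase and the phospholipase together, rose by 1.05 ± 0.10 on average (adjusted p = 6.56e-11), and Galphaq, the alpha subunit, by 0.86 ± 0.12 (adjusted p = 1.83e-07). inaE, a diacylglycerol lipase, gave 0.05 ± 0.13 on its brightest probe set (adjusted p = 0.836), while another of its 5 probe sets rose by 1.13 (adjusted p = 2.41e-12). The probe sets of Galphaq also differed, with 0.92 and 0.10 (adjusted p = 1.87e-07 and 0.256) on the others.

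Of the 3 measured genes of calcium entry and exit, all rose on average. With arrays centred on the neuronal list trpl and Calx were lower, by 0.44 and 0.42, beside −0.96 for the median probe set. The channel gene trp read 7.69, 7.70, 7.74 and 7.56 in middle-aged C flies on optimal food and 9.34, 9.95, 9.17 and 9.33 on malnutrition. In old SR flies it read 8.04, 8.27, 7.71 and 8.12 on optimal food and 10.14, 9.61, 9.36 and 9.22 on malnutrition. Neither pair of groups overlapped. The rises were 1.78 ± 0.22 in middle-aged C flies (adjusted p = 1.98e-07), 1.50 ± 0.24 in old C flies (adjusted p = 8.82e-06) and 1.55 ± 0.22 in old SR flies (adjusted p = 1.09e-06). In middle-aged SR flies trp gave 0.47 ± 0.22 and was not called (adjusted p = 0.154), although all 4 malnourished arrays, at 8.91 to 9.17, lay above the 4 on optimal food, at 8.26 to 8.80. Averaged over the 4 settings trp rose by 1.32 ± 0.11, or 2.50-fold (adjusted p = 1.9e-12). trpl, the second light-gated channel, rose by 0.52 ± 0.10 and Calx, the sodium-calcium exchanger that clears calcium after light, by 0.54 ± 0.08 on average (adjusted p = 6.39e-05 and 1.39e-06).

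Each of the 4 measured genes that end the response rose on average. With arrays centred on the neuronal list, where the median probe set gave −0.96, stops was lower by 0.34 and Arr2 gave −0.09 and was not called. The average rises were 1.07 ± 0.10 for Arr1 and 0.87 ± 0.08 for Arr2, the arrestins that bind activated rhodopsin (adjusted p = 9.39e-12 and 3.84e-11). rdgC, the calcium-dependent rhodopsin phosphatase, rose by 0.97 ± 0.12 (adjusted p = 3.32e-08), and stops, a SOCS-box protein needed to end the response, by 0.62 ± 0.07 (adjusted p = 1.29e-09). Of the 4 genes of the lipid cycle 3 rose, of which rdgA and CdsA were lower by 0.26 and 0.76 with arrays centred on the neuronal list. These were rdgB, the phosphatidylinositol transfer protein (0.99 ± 0.17, adjusted p = 1e-05), rdgA, the diacylglycerol kinase (0.70 ± 0.13, adjusted p = 4.14e-05), and CdsA, the CDP-diacylglycerol synthase (0.20 ± 0.03, adjusted p = 1.55e-05). The 4 probe sets of rdgA gave unlike values, with 0.06, 0.26 and 0.92 on the other 3. For rdgB the other probe set, almost as bright (mean 7.84 against 7.88), gave 0.21 and was not called (adjusted p = 0.0822), and it was not called in any of the 4 combinations of line and age. ninaG, an oxidoreductase of chromophore synthesis, gave the smallest rise of the remaining called genes, 0.38 ± 0.06 (adjusted p = 1.64e-06, but 0.58 lower with arrays centred on the neuronal list). chp, chaoptin, the adhesion protein of the photoreceptor membrane, rose by 0.84 ± 0.11 (adjusted p = 4.19e-08, and −0.12, not called, when centred).

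Pdh and retinin went the other way on average. Pdh, the retinol dehydrogenase of retinal pigment cells, read 10.01, 9.75, 10.23 and 10.42 in middle-aged SR flies on optimal food and 8.73, 9.15, 8.36 and 9.34 on malnutrition. In middle-aged C flies it read 9.41, 8.96, 8.88 and 8.98 on optimal food and 10.07, 10.68, 9.54 and 10.41 on malnutrition. The 2 groups of each line did not overlap, and they lay in opposite order in the 2 lines. Pdh fell by 1.20 ± 0.29 in middle-aged SR flies (adjusted p = 0.00425) and by 1.25 ± 0.29 in old SR flies (adjusted p = 0.00146), and rose by 1.12 ± 0.29 in middle-aged C flies (adjusted p = 0.00571), a rise that became −0.05 with arrays centred on the neuronal list, beside −1.21 for the median probe set. In old C flies it gave −0.48 ± 0.31 (adjusted p = 0.332), and on average it fell by 0.45 ± 0.15 (adjusted p = 0.0159). retinin, a protein of the corneal lens, read 8.64, 9.56, 8.48 and 8.61 in old SR flies on optimal food and 7.70, 5.45, 6.14 and 6.30 on malnutrition. The groups did not overlap, and the first malnourished array lay above the other 3. It fell by 2.43 ± 0.31, or 5.38-fold (adjusted p = 2.05e-07), and retinin was not called in any of the other 3 settings (0.18, −0.51 and −0.72 in middle-aged C, old C and middle-aged SR flies). On average it fell by 0.87 ± 0.16 (adjusted p = 3.12e-05). laza, a lipid phosphate phosphatase, gave −0.21 ± 0.10 on average (adjusted p = 0.0972).

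**Figure D3:**
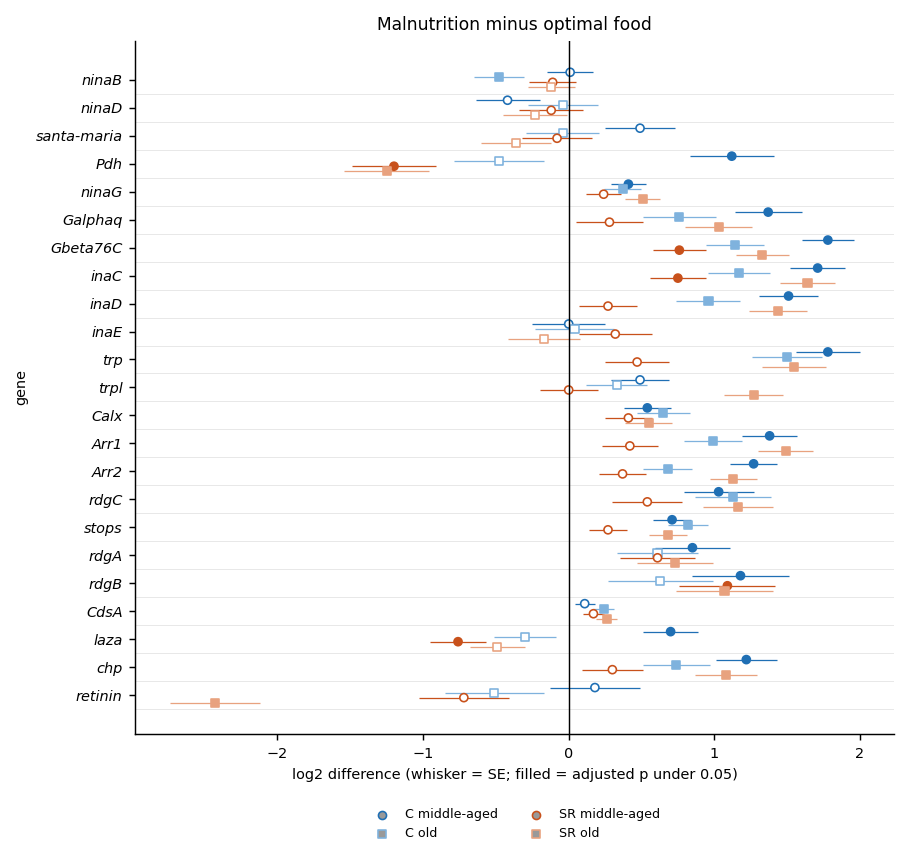
Log2 difference between malnutrition and optimal food for each of the 23 genes in middle-aged and old C flies and middle-aged and old SR flies, with the standard error of the fit as whiskers and filled symbols at an adjusted p under 0.05. At 2 decimals 15 of the 20 eye genes lie above 0 in all 4 settings. Pdh, retinin, laza and inaE do not, and trpl had a mean of 8.43 on both diets in middle-aged SR flies. Once arrays were centred on the neuronal list 10 of the 20 eye genes were called lower on average and 3 higher. In that fit 18499 of all 18952 probe sets were called lower and 152 higher, with a median of −0.96.

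Setting by setting, 16 of the 20 eye genes rose in middle-aged C flies and none fell (median 1.08, 9.03% of all probe sets called higher), and in old C flies 13 rose and none fell (median 0.67, 9.52% called higher), while with arrays centred on the neuronal list 4 were higher and 8 lower in middle-aged and 1 higher and 9 lower in old C flies. So centred, 18022 of the 18952 probe sets were called lower and 147 higher in middle-aged C flies, and 17730 and 76 in old C flies. In middle-aged C flies 17 of the 20 eye genes did not overlap between the 2 diets, against 18.3% of all probe sets. In old SR flies 16 eye genes rose and 2 fell (median 1.05, 8.24% called higher and 8% lower), and 5 were higher and 8 lower when centred. The centring called 18212 of the 18952 probe sets lower and 111 higher in old SR flies, and 14456 and 107 in middle-aged SR flies. In middle-aged SR flies 3 eye genes rose and 2 fell, with a median of 0.31, against 7.36% and 6.4% of all probe sets (none higher and 7 lower when centred). An unadjusted p under 0.05 was found for 15 of the 20, without a share of all probe sets to set beside it. The 3 were rdgB (1.09 ± 0.33, adjusted p = 0.0253), Gbeta76C (0.76 ± 0.18, adjusted p = 0.0039) and inaC (0.75 ± 0.19, adjusted p = 0.00613), and the 2 were Pdh and laza, which fell by 0.76 ± 0.19 (adjusted p = 0.00605). With the germline mean as a covariate 13 of the 20 were called there, 11 of them higher. That fit called 2220 of the 18952 probe sets higher and 1558 lower, against 1394 and 1213 without the covariate. The neuronal list rose in 18, 16, 13 and 17 of 20 genes in middle-aged C, old C, middle-aged SR and old SR flies, with medians of 1.24, 1.02, 0.58 and 1.13. The smallest called rises were those of ninaG (0.41 ± 0.12, adjusted p = 0.0126) and Calx (0.54 ± 0.16, adjusted p = 0.0179) in middle-aged C flies. In old C flies they were those of CdsA (0.24 ± 0.07, adjusted p = 0.0184) and ninaG (0.37 ± 0.13, adjusted p = 0.0341), and in old SR flies those of CdsA (0.26 ± 0.07) and ninaG (0.51 ± 0.12).

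Whether the response to malnutrition differed between the lines was tested as the response in SR flies minus that in C flies, a comparison added after the data had been seen. At middle age this difference was called for 7 of the 20 eye genes and was negative in each, against 1.54% of all probe sets called lower. The median over the 20 was −0.90. Pdh differed by −2.32 ± 0.41 (adjusted p = 0.00282) and laza by −1.45 ± 0.27 (adjusted p = 0.00416), and both fell on malnutrition in SR flies but rose in C flies. laza read 7.91, 7.99, 7.75 and 7.95 in SR flies on optimal food and 7.21, 7.13, 7.24 and 7.0 on malnutrition, but 7.20, 7.20, 7.23 and 7.02 and then 8.0, 8.32, 7.44 and 7.67 in C flies, again in opposite order and without overlap. The other 5 were trp (−1.31 ± 0.31, adjusted p = 0.0233), inaD (−1.25 ± 0.28, adjusted p = 0.0184), Gbeta76C (−1.02 ± 0.26, adjusted p = 0.0333), Arr1 (−0.96 ± 0.27, adjusted p = 0.0485) and Arr2 (−0.90 ± 0.23, adjusted p = 0.0354). On optimal food at middle age all of these except Arr1 (0.33 ± 0.19, adjusted p = 0.24) were also called higher in SR than in C flies, in a comparison that shares 2 of the 4 groups. Of the neuronal list 3 of 20 genes differed the same way, with a median of −0.60. With arrays centred on that list 4 eye genes were called, and 2, Pdh and laza, with the germline mean as a covariate. Over all 18952 probe sets the centring called 4607 and the covariate 70, against 404 without either. Leaving out single arrays gave 2 calls without the second malnourished C array or the fourth SR array on optimal food, 3 without the third malnourished SR array or the second C array on optimal food, and 4 without the first or the fourth malnourished SR array or the fourth C array on optimal food, and Pdh and laza were called each time. In old flies limma called none of the 20, with 2 at an unadjusted p under 0.05 and 0.285% of all probe sets called, and leaving out the first malnourished old SR array gave 1 call.

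Overfeeding was compared with optimal food in the same way. Averaged over lines and ages, 8 of the 20 eye genes fell and 1 rose (median −0.25, against 8.18% of all probe sets called lower and 8.11% higher), and 12 of the 20 neuronal genes fell too, with a median of −0.32. With arrays centred on the neuronal list 5 eye genes were higher and 2 lower, with a median of 0.04. That fit called 15535 of the 18952 probe sets higher and 340 lower, with a median of 0.32. With the germline covariate 4 were lower, Galphaq, inaC, trp and Arr2, and none higher (median −0.13). The covariate fit called 644 of the 18952 probe sets higher and 839 lower. Of the cascade, Galphaq fell by 0.50 ± 0.12 (adjusted p = 0.00527), inaC by 0.39 ± 0.10 (adjusted p = 0.00728) and inaD by 0.35 ± 0.10 (adjusted p = 0.0185), while inaE rose by 0.43 ± 0.13 (adjusted p = 0.0222) on its brightest probe set and on none of its other 4. The channel trp fell by 0.43 ± 0.11 (adjusted p = 0.00982) and the exchanger Calx by 0.24 ± 0.08 (adjusted p = 0.0448, but 0.06, not called, when centred). Of the genes that end the response, rdgC fell by 0.46 ± 0.12 (adjusted p = 0.0117) and Arr2 by 0.36 ± 0.08 (adjusted p = 0.00385). The second probe set of rdgC was not called (−0.20, adjusted p = 0.0655), and that of rdgB rose by 0.38 (adjusted p = 0.0076) where its brightest was not called. Pdh fell by 0.43 ± 0.15 (adjusted p = 0.042). The calls of Calx and Pdh were the least firm, ending when any of 19 and any of 15 arrays was left out.

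The fall on overfeeding was called in 1 of the 4 settings, middle-aged SR flies, where 5 of the 20 eye genes fell and none rose (median −0.56), against 0.902% of all probe sets called lower, while 3 were higher and 4 lower with arrays centred on the neuronal list (median −0.03). So centred, 14799 of the 18952 probe sets were called higher and 102 lower, with a median of 0.55. In these flies Pdh read 8.54, 9.07, 7.57 and 8.97 on overfeeding, all below the lowest of the 4 arrays on optimal food, 9.75, and it fell by 1.56 ± 0.29 (adjusted p = 0.0127). The others were trp (−0.87 ± 0.22, adjusted p = 0.04), inaD (−0.86 ± 0.20, adjusted p = 0.0292), inaC (−0.77 ± 0.19, adjusted p = 0.0381) and Arr2 (−0.70 ± 0.16, adjusted p = 0.028). This count rested on single arrays. It was 0 without the fourth SR array on optimal food or without the first or the third on overfeeding, 1 without the second on optimal food, 2 without the second on overfeeding and 9 without the fourth on overfeeding, and it was 0 when the 2 groups were fitted alone. Of the neuronal list 3 genes fell, with a median of −0.60. In middle-aged C, old C and old SR flies limma called none of the eye genes, with 3, 1 and 1 at an unadjusted p under 0.05 and with 0.0106%, 0.871% and 0.248% of all probe sets called. trp gave −0.29, −0.41 and −0.14 in these 3 settings.

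Old and middle-aged flies were compared to ask how the visual genes follow age, first on optimal food. In C flies 6 of the 20 eye genes rose and 1 fell with age, with a median of 0.48, against 9.76% of all probe sets called higher and 16.3% lower. Of the 20 genes 12 did not overlap between the ages, against 22.9% of all probe sets. An unadjusted p under 0.05 was found for 12, without a share of all probe sets to set beside it. Pdh read 9.41, 8.96, 8.88 and 8.98 at middle age and 10.07, 10.34, 10.31 and 10.80 in old C flies, with no overlap, and rose by 1.32 ± 0.29 (adjusted p = 0.00181). trp read 7.69, 7.70, 7.74 and 7.56 and then 8.11, 8.19, 8.66 and 8.44, again with no overlap, and rose by 0.68 ± 0.22 (adjusted p = 0.0196). The other rises were those of Galphaq (0.85 ± 0.23, adjusted p = 0.00756), inaC (0.60 ± 0.19, adjusted p = 0.0175), trpl (0.58 ± 0.20, adjusted p = 0.0287) and Arr2 (0.51 ± 0.16, adjusted p = 0.0175), and CdsA fell by 0.18 ± 0.07 (adjusted p = 0.0437). The other probe sets of Galphaq gave −0.14 and 0.58 and were not called.

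The count of called eye genes in C flies changed when other lists were taken into account and when single arrays were left out. Of the germline list 10 of 15 genes fell over the same comparison (median −0.45, germline mean 9.52 to 9.65 at middle age and 8.95 to 9.38 in old flies), and with the germline mean as a covariate no eye gene was called and the median was −0.09. That fit called 182 of the 18952 probe sets, against 4936 without the covariate. Since the germline mean itself did not overlap between the ages, this fit could not separate age from the germline mean. Of the gut list 2 of 10 genes rose, against 9.76% of all probe sets called higher, with a median of 0.46 (gut mean 10.59 to 11.19 and then 10.77 to 11.80). The part of the gut list was not tested. Of the neuronal list 2 of 20 genes rose, a share near that of all probe sets, with a median of 0.31. Centring on the neuronal list left 2 eye genes higher, Pdh (1.0) and Galphaq (0.53), and 2 lower, inaE and CdsA. So centred, 787 of the 18952 probe sets were called higher and 4340 lower. The count of 7 called eye genes became 1 without the third old array, 3 without the second or the fourth middle-aged array and 4 without the fourth old array, while Pdh and ninaD were called without any 1 array. With the 2 groups fitted alone and the replicate number as a block, 13 eye genes were called, and 5136 of the 18952 probe sets.

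In SR flies on optimal food 3 of the 20 eye genes fell with age and none rose, with a median of −0.36, against 0.227% of all probe sets called lower. An unadjusted p under 0.05 was found for 10, without a share of all probe sets to set beside it. Arr1 read 10.10, 10.17, 9.93 and 10.76 at middle age and 9.23, 9.61, 9.13 and 9.10 in old SR flies, without overlap, and fell by 0.97 ± 0.19 (adjusted p = 0.0043). inaD read 6.79, 7.08, 7.05 and 7.53 and then 6.37, 6.44, 5.87 and 6.21, again without overlap, and fell by 0.89 ± 0.20 (adjusted p = 0.0143). trpl read 8.38, 8.20, 8.32 and 8.81 and then 7.32, 7.94, 7.53 and 7.65, and fell by 0.82 ± 0.20 (adjusted p = 0.0279). No gene of the neuronal or the germline list was called, with medians of −0.15 and −0.04. Centred on the neuronal list 4 eye genes fell, the 3 above and inaC, and with the germline covariate 9 fell. Over all 18952 probe sets the centring called 25 lower and the covariate 182, against 43 without either. The count was 1 without the fourth middle-aged or the third old array, and 0 when the 2 groups were fitted alone.

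**Figure D4:**
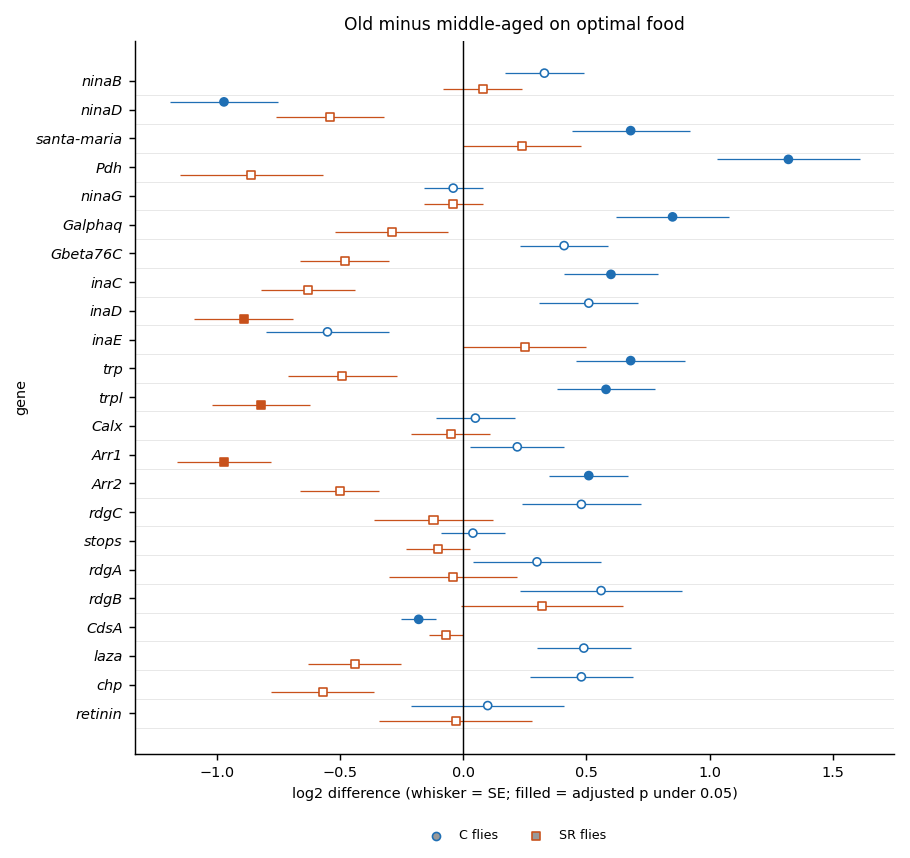
Log2 difference between old and middle-aged flies on optimal food for each of the 23 genes in C and in SR flies, with the standard error of the fit as whiskers and filled symbols at an adjusted p under 0.05. Pdh, trp, inaC and Arr2 were higher in old C flies and not called in SR flies, and with the germline mean as a covariate no eye gene was called in C flies. The covariate lowered the calls over all 18952 probe sets in C flies from 4936 to 182.

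The difference between these 2 age effects was tested itself, as the age effect in SR flies minus that in C flies. On optimal food 11 of the 20 eye genes had a lower age effect in SR flies and none a higher one (median −0.91), against 2.08% of all probe sets called lower. This comparison and the one of the malnutrition responses at middle age share the middle-aged arrays on optimal food. In the cascade the difference was −1.41 ± 0.28 for inaD (adjusted p = 0.0117), −1.23 ± 0.27 for inaC (adjusted p = 0.017), −1.14 ± 0.33 for Galphaq (adjusted p = 0.0412) and −0.88 ± 0.26 for Gbeta76C (adjusted p = 0.0412). The other probe sets of Galphaq gave 0.33 and −0.70 and were not called. Both light-gated channels differed, trpl by −1.39 ± 0.28 (adjusted p = 0.0117) and trp by −1.17 ± 0.31 (adjusted p = 0.0339), and so did both arrestins, Arr1 by −1.19 ± 0.27 (adjusted p = 0.018) and Arr2 by −1.01 ± 0.23 (adjusted p = 0.0193). Pdh gave the largest difference, −2.18 ± 0.41 (adjusted p = 0.00809). Chaoptin (chp) differed by −1.05 ± 0.30 (adjusted p = 0.0409) and laza by −0.93 ± 0.27 (adjusted p = 0.0413).

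Such a difference was called for 2 of the 20 neuronal genes (median −0.49), against 2.08% of all probe sets called lower. No germline gene was called, although the germline median was 0.51. With arrays centred on the neuronal list 3 eye genes were called, Pdh, inaD and trpl, and with the germline mean as a covariate none was. The covariate lowered the calls over all 18952 probe sets from 996 to 10, and the centring lowered them to 31. The count of 11 was 3 without the fourth middle-aged SR array or the third old C array, 5 without the second middle-aged C array and 6 without the first, the third or the fourth old SR array, the fourth middle-aged C array or the fourth old C array, and Pdh, inaD and trpl were called without any 1 array. On malnutrition and on overfeeding limma called no difference in age effects, with 1 eye gene each at an unadjusted p under 0.05, and 0.0264% and 0.095% of all probe sets called. trp gave 0.18 ± 0.32 and −0.32 ± 0.32 there.

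Off optimal food few age effects were called. The median age difference of the eye genes was −0.02 and 0.22 on malnutrition in C and SR flies, and 0.39 and 0.05 on overfeeding. In overfed C flies 16 of the 20 lay above 0 and 4 below, beside 17 and 3 in C flies on optimal food (median 0.48). On malnutrition limma called none of the 20 eye genes in C flies, with 2 at an unadjusted p under 0.05 and 0.823% of all probe sets called. In SR flies on malnutrition 1 eye gene was called, retinin, which fell by 1.74 ± 0.31 with age (adjusted p = 0.00336), against 0.216% of all probe sets called lower, and a further gene was called without the first old array. retinin read 7.64, 8.65, 7.64 and 8.61 at middle age and 7.70, 5.45, 6.14 and 6.30 in old flies, so the groups overlapped through the first old array. On overfeeding none was called in C flies (9 at an unadjusted p under 0.05, 1.24% of all probe sets called), where Pdh gave 1.16 ± 0.31 (adjusted p = 0.0529) and 3 genes were called without the fourth middle-aged array. None was called in SR flies on overfeeding, with 0 at an unadjusted p under 0.05 and 1.79% of all probe sets called.

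Averaged over lines and diets, 4 eye genes rose with age and 1 fell, with a median of 0.09, against 8.86% of all probe sets called higher and 9.32% lower, whereas with arrays centred on the neuronal list 1 was higher and 10 lower, and with the germline mean as a covariate none was higher and 4 were lower (median −0.07). Of the 18952 probe sets the centring called 660 higher and 14436 lower (median −0.23), and the covariate 538 and 431. The eye genes called without either were rdgC (0.46 ± 0.10, adjusted p = 0.00152), rdgB (0.42 ± 0.14, adjusted p = 0.0308), Galphaq (0.34 ± 0.10, adjusted p = 0.0141) and trp (0.33 ± 0.09, adjusted p = 0.0109), and inaE, which fell by 0.31 ± 0.11 (adjusted p = 0.0372). The other probe set of rdgB gave −0.17 (adjusted p = 0.125), and the second probe set of rdgC (0.08) and 1 of the other 2 of Galphaq (0.04) were not called either. Of the neuronal list 6 of 20 genes rose and of the germline list 9 of 15 fell. The count of 5 was 3 without the second old SR array on overfeeding or the second old C array on malnutrition.

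The lines were compared within each diet and age. On optimal food at middle age 12 of the 20 eye genes were higher in SR than in C flies and none lower, with a median of 0.51, against 8.48% of all probe sets called higher, while with arrays centred on the neuronal list 3 were higher and 5 lower. So centred, 369 of the 18952 probe sets were called higher and 13012 lower, with a median of −0.52. retinin read 8.64, 8.72, 9.03 and 9.02 in SR flies and 7.38, 7.02, 7.41 and 7.85 in C flies, and was 1.44 ± 0.31 higher (adjusted p = 0.00173). The lowest SR array lay above the highest C array. Pdh was 1.04 ± 0.29 higher (adjusted p = 0.0118), trpl 1.0 ± 0.20 (adjusted p = 0.000637), trp 0.86 ± 0.22 (adjusted p = 0.00646) and inaD 0.79 ± 0.20 (adjusted p = 0.00633). The smallest called differences were those of Arr2 (0.49 ± 0.16, adjusted p = 0.0311, and −0.01 when centred) and stops (0.49 ± 0.13, adjusted p = 0.0109, and −0.01 when centred). Of the neuronal list 8 of 20 genes were higher in SR flies (median 0.47, neuronal mean 6.80 to 7.06 against 6.32 to 6.57 in C flies). Without the fourth SR array, the highest of its group for trpl and Arr1, 6 eye genes were called.

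In old flies on optimal food the order of the lines was the other way for 3 of the 4 called eye genes, 1 being higher in SR flies and 3 lower, against 2.38% and 1.97% of all probe sets. retinin was again higher in SR flies, by 1.30 ± 0.31 (adjusted p = 0.00872). Pdh was lower by 1.14 ± 0.29 (adjusted p = 0.0145), Arr1 by 0.86 ± 0.19 (adjusted p = 0.0034) and chp by 0.70 ± 0.21 (adjusted p = 0.0477). Of these 3, Pdh had been called higher in SR flies at middle age, while Arr1 and chp had not been called there. Pdh read 9.13, 9.82, 9.05 and 8.97 in old SR flies, below all 4 old C arrays, at 10.07 to 10.80. Without the fourth old array of either line 2 of the 4 were called. trp gave −0.31 ± 0.22 (adjusted p = 0.48).

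On malnutrition 2 eye genes differed between the lines at middle age, Pdh, lower in SR flies by 1.28 ± 0.29 (adjusted p = 0.00542), and laza, lower by 0.71 ± 0.19 (adjusted p = 0.0238), against 1.82% of all probe sets called lower. The count was 1 without the second or the fourth SR array or the first or the second C array. In old flies Pdh alone was called, at 8.83, 7.45, 7.60 and 8.09 in SR flies and 9.73, 9.49 and 10.47 in C flies, and was lower by 1.90 ± 0.31 (adjusted p = 8.79e-05, 1.78% called lower). Here 3 genes were called without the first SR array. On overfeeding limma called no eye gene at middle age, with 4 at an unadjusted p under 0.05 and 4.47% of all probe sets called, and 1 without the third SR array. In old flies on overfeeding Pdh was lower in SR flies by 1.23 ± 0.31 (adjusted p = 0.0211) and Arr1 by 0.85 ± 0.20 (adjusted p = 0.0113), against 1.19% called lower. That count was 0 without the third C array and 1 without the second C array or the first or the fourth SR array.

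Averaged over diets and ages, 3 eye genes were higher and 4 lower in SR flies, with a median of −0.02, against 11.4% of all probe sets called higher and 8.80% lower. With arrays centred on the neuronal list 2 were higher and 10 lower (median −0.16), and with the germline covariate 4 were higher and 6 lower. Of the 18952 probe sets the centring called 665 higher and 3349 lower (median −0.15), and the covariate 2761 and 2389. Without either, the higher eye genes were retinin (0.60 ± 0.13, adjusted p = 0.000639), trpl (0.41 ± 0.08, adjusted p = 0.000255) and stops (0.24 ± 0.06, adjusted p = 0.00158). The lower were Pdh (−0.85 ± 0.12, adjusted p = 9.01e-07), Arr1 (−0.46 ± 0.08, adjusted p = 2.55e-05), Calx (−0.30 ± 0.07, adjusted p = 0.000809) and chp (−0.26 ± 0.09, adjusted p = 0.0292). trp gave 0.01 ± 0.09. Pdh was thus called in 5 of the 6 comparisons of the lines, higher in SR flies at middle age on optimal food and lower in the other 4.

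The 3 genes of carotenoid supply did not follow the eye genes on malnutrition. ninaB, the oxygenase that cleaves carotenoid, gave −0.17 ± 0.08, ninaD, a scavenger receptor for carotenoid uptake in the gut, −0.20 ± 0.11, and santa-maria, a scavenger receptor of extra-retinal tissue, 0.01 ± 0.12 on average, and limma called none, with adjusted p = 0.105, 0.186 and 0.981. In the single settings only ninaB in old C flies was called, lower by 0.48 ± 0.17 on malnutrition (adjusted p = 0.0477, 7.97% of all probe sets called lower), at 5.60, 6.01 and 6.21 against 6.01, 6.43, 7.02 and 6.22 on optimal food, where the groups overlapped. With arrays centred on the neuronal list all 3 were lower on average, by 1.13, 1.16 and 0.95, beside −0.96 for the median probe set.

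With age ninaD and santa-maria went in opposite directions. ninaD read 4.36, 5.13, 4.54 and 5.20 in middle-aged C flies on optimal food and 3.95, 3.88, 3.71 and 3.82 in old ones, without overlap, and fell by 0.97 ± 0.22 (adjusted p = 0.00244). These values lay near or under the array medians of 5.04 to 5.27, so the gene was dim. Its age difference was negative in each of the 6 settings, with −0.58 and −0.43 in C flies on malnutrition and overfeeding and −0.54, −0.65 and −0.60 in SR flies on optimal food, malnutrition and overfeeding, none of which was called. Averaged over lines and diets it fell by 0.63 ± 0.09 (adjusted p = 5.54e-06), by 0.84 with arrays centred on the neuronal list and by 0.66 with the germline covariate. santa-maria read 8.0, 7.41, 7.75 and 7.53 in middle-aged C flies on optimal food and 8.52, 8.05, 8.71 and 8.14 in old ones, and rose by 0.68 ± 0.24 (adjusted p = 0.029). Its average rise with age was 0.34 ± 0.10 (adjusted p = 0.0156), and ninaB gave 0.12 ± 0.07 (adjusted p = 0.219). No difference between the lines in these age effects was called on optimal food (0.43 ± 0.31 for ninaD, −0.45 ± 0.33 for santa-maria and −0.24 ± 0.23 for ninaB, adjusted p = 0.404, 0.419 and 0.544). Differences of this size could not be told from 0 with 4 arrays a group.

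On overfeeding santa-maria was lower by 0.34 ± 0.12 on average (adjusted p = 0.0497, a call lost without any of 20 arrays) and ninaD gave 0.26 ± 0.11 (adjusted p = 0.0996). In old C flies ninaD read 4.83, 4.48 and 4.64 on overfeeding, above all 4 arrays on optimal food, with a difference of 0.81 ± 0.24 that was not called (adjusted p = 0.0851). Averaged over diets and ages ninaD was lower in the SR line by 0.35 ± 0.09 (adjusted p = 0.00429). In the single comparisons of the lines it was not called, with values from −0.82 in old flies on overfeeding to 0.03 in old flies on optimal food.

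**Figure D5:**
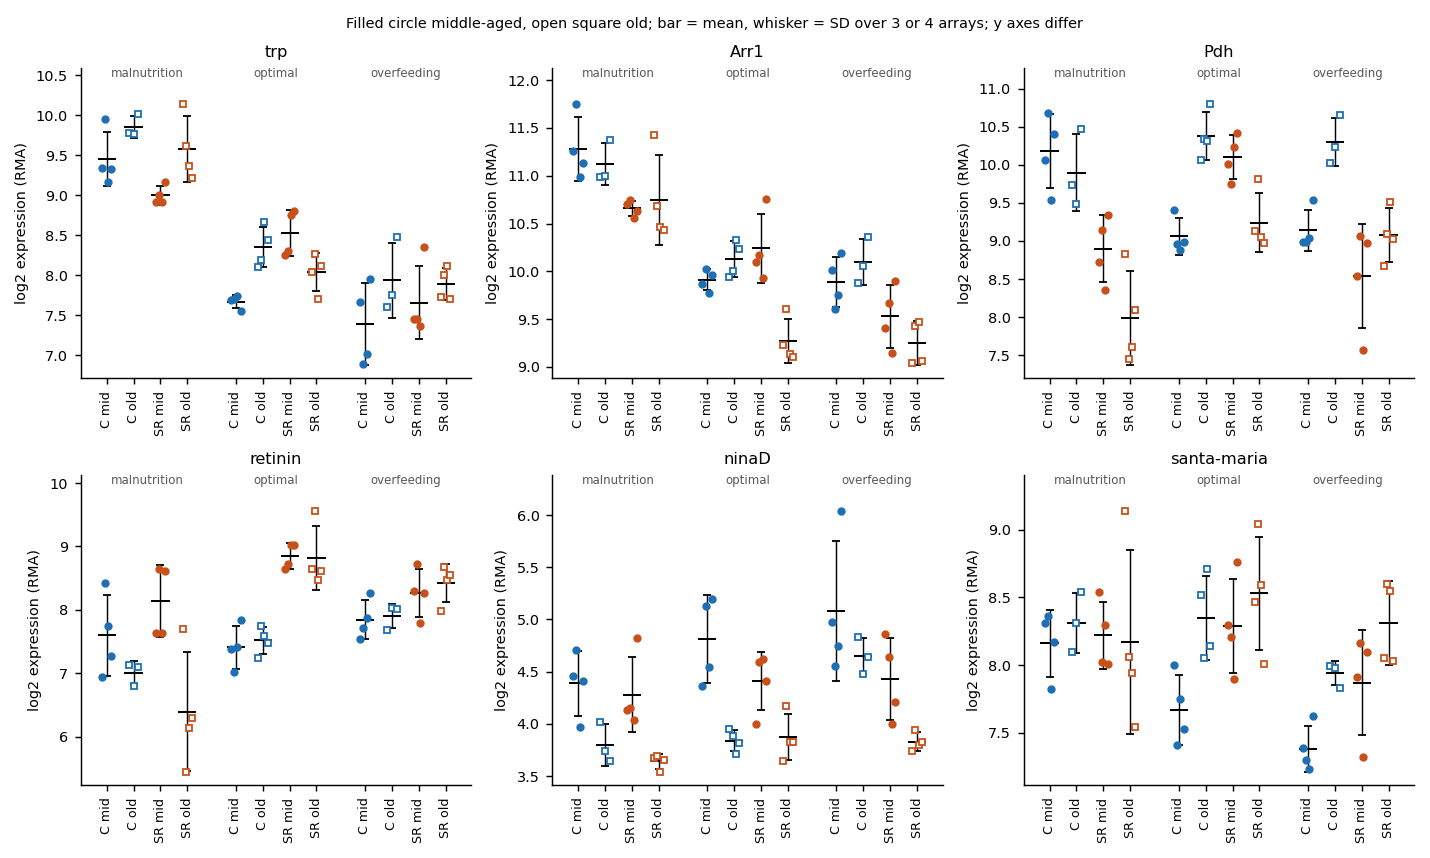
Log2 expression of trp, Arr1, Pdh, retinin, ninaD and santa-maria in each array (points), with the group mean, by line, diet and age, each gene on its own scale. trp was higher on malnutrition in both lines, Pdh was lower on malnutrition in SR flies, retinin fell to between 5.45 and 7.70 in old SR flies on malnutrition, and ninaD was lower in old than in middle-aged flies on average.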

How the data were processed

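RNA of 46 pools of 5 whole females was read on Affymetrix Drosophila 2.0 arrays. The deposited table holds log2 values from RMA, a method that subtracts background, gives all arrays 1 distribution and combines the probes of a probe set. R 2.7.0 is named in the submitters' processing notes, and the authors had left out 2 arrays for quality. Arrays give no read depth, so their number limits the precision, and p-values measure the spread between pools of 1 line each. Nothing was normalized again, so a shift shared by most genes is already removed.

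The annotation gave 1 gene symbol for 13646 of the 18952 probe sets, several for 402, and did not list 4903. The 9 listed genes without a probe set there were not analysed here, and no sequence was printed or searched. The genes and the lists were chosen with earlier results of these data known.

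Group means were estimated from all 46 arrays in 1 model (limma 3.58.1, lmFit and eBayes, two-sided, R 4.3.3). P-values of each of 29 contrasts were Benjamini-Hochberg adjusted over all probe sets, with a threshold of 0.05. The 2 contrasts of the malnutrition response between lines were added after the data had been seen. Tables and plots were made in Python 3.11.15 with numpy 2.4.6, pandas 2.3.3 and matplotlib 3.10.9. On simulated data the fit recovered 98% of changes of 0.5 and 100% of changes of 1 for malnutrition averaged over lines and ages (18952 probe sets). Named were all called genes up to 10 a comparison. Beyond 10 the 2 smallest called differences and those in the opposite direction were named, but not always the 5 largest. trp and ninaD were given in a part of the comparisons. Other called genes are given where their role is described.

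Alternatives were arrays centred on the neuronal list, the germline mean as a covariate, a minimum mean of 5, the mean of all probe sets of a gene, the compared groups fitted alone, the replicate number as a block, and each array left out in turn. The labels do not say what a replicate number stands for. Arrays with the same number deviated together, with a correlation over 0.1 in each pair, in 2 of 20 comparisons, age on optimal food in C flies (0.344 to 0.401, 4 pairs) and line in old flies on overfeeding (0.118 to 0.192, 3 pairs), and for these the groups alone with the block were added after the data had been seen.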

Additional observations from a re-analysis of the deposited data

Results flagged for a closer look

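Of 230 groups of 4 arrays over the 23 genes 14 had an array set apart from the other 3 by Dixon's test, where chance gives about 1 in 20. Among middle-aged SR flies on overfeeding 1 array was high for trp (8.35, others 7.37 to 7.46), Galphaq (7.87, others 7.15 to 7.22) and laza (7.57, others 7.28 to 7.33). Among old C flies on optimal food 1 array was high for inaC (7.5, others 6.99 to 7.06) and chp (9.09, others 8.26 to 8.35), and among old SR flies on optimal food for inaC (6.93, others 6.53 to 6.56) and retinin (9.56, others 8.48 to 8.64). Middle-aged C flies had a high array for Pdh on overfeeding (9.54, others 8.99 to 9.04) and for inaD on malnutrition (8.5, others 7.57 to 7.72) and a low one for laza on optimal food (7.02, others 7.20 to 7.23). Middle-aged SR flies on malnutrition had a high array for ninaD (4.82, others 4.04 to 4.15) and CdsA (10.46, others 10.40 to 10.41), those on optimal food a low array for ninaB (5.97, others 6.33 to 6.39), and old SR flies on malnutrition a low array for inaE (5.78, others 7.13 to 7.37).

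The age effect on optimal food differed between the lines, by limma's test of the difference, for Pdh (−2.18), inaD (−1.41), trpl (−1.39), inaC (−1.23), Arr1 (−1.19), trp (−1.17), Galphaq (−1.14), chp (−1.05), Arr2 (−1.01), laza (−0.93) and Gbeta76C (−0.88). The response to malnutrition at middle age differed between the lines for Pdh (−2.32), laza (−1.45), trp (−1.31), inaD (−1.25), Gbeta76C (−1.02), Arr1 (−0.96) and Arr2 (−0.90). Both share the middle-aged arrays on optimal food.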

How the results depend on the processing

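Of the 153 called differences of the 23 genes 94 were called whichever array was left out. With 1 array left out, the count of eye genes called for malnutrition ranged from 12 to 16 in middle-aged C, 10 to 13 in old C, 4 to 6 in middle-aged SR and 15 to 18 in old SR flies, and from 18 to 19 on average. For overfeeding it ranged from 0 to 9 in middle-aged SR flies and from 6 to 11 on average. For age it ranged on optimal food from 1 to 9 in C and from 1 to 3 in SR flies, from 0 to 3 in C flies on overfeeding, from 1 to 2 in SR flies on malnutrition and from 3 to 6 on average. For line it ranged on optimal food from 6 to 11 at middle and from 2 to 4 at old age, on malnutrition from 1 to 3 at both ages, on overfeeding from 0 to 1 and from 0 to 2, and on average from 7 to 8. Between the lines it ranged from 3 to 12 for age on optimal food and from 2 to 9 and 0 to 1 for malnutrition at middle and old age. In the other 7 comparisons it stayed at 0.

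Centring arrays on the neuronal list changed the count of called eye genes to 4 for age on optimal food in C flies, 1 in C and 2 in SR flies on malnutrition and 11 on average. For line it gave 7 in old flies on optimal food, 4 on malnutrition and 2 on overfeeding at middle age, and 12 on average. Between lines it gave 3 for age on optimal food and 4 and 1 for malnutrition at middle and old age. With the germline covariate the counts were 0 and 9 for age on optimal food in C and in SR flies, 1 and 2 on malnutrition, 1 in SR flies on overfeeding, 13 for malnutrition and 9 for overfeeding in middle-aged SR flies, and 4 for overfeeding on average. For line they were 4 and 2 on malnutrition and 2 at middle age on overfeeding, and between lines 0 for age on optimal food and 2 and 2 for malnutrition. A minimum mean of 5 gave 1 for age in C flies on overfeeding, 8 for overfeeding in middle-aged SR flies and 1 for line on overfeeding at middle age. The mean of all probe sets gave 3 for age on average. Groups fitted alone gave 2 for age in overfed C flies, 0 each for age in SR flies on malnutrition and on optimal food, 0 for overfeeding in middle-aged SR flies, and 0 and 1 for line in old flies on malnutrition and middle-aged flies on overfeeding. The calls over all probe sets changed as well, and their counts are given above for a part of these fits. The cause of these changes was not tested.

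With the replicate number as a block over all arrays, 8 eye genes were called for age on optimal food in C flies, against 7 without it, and 1 for age in C flies on overfeeding. With those groups alone and the block, 13 were called for age on optimal food in C flies. For line in old flies on overfeeding the block left 2.

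Of 60 values that reversed, 57 did so with arrays centred on the neuronal list. For malnutrition in middle-aged C flies these were ninaB (−1.16), CdsA (−1.06), retinin (−0.98), ninaG (−0.76), trpl (−0.68), santa-maria (−0.67), Calx (−0.63), laza (−0.47), stops (−0.46), rdgA (−0.32), rdgC (−0.13) and Pdh (−0.05). In old C flies they were inaE (−0.98), CdsA (−0.79), trpl (−0.69), ninaG (−0.65), Calx (−0.37), Arr2 (−0.34), chp (−0.28), Galphaq (−0.26), stops (−0.20), inaD (−0.06) and Arr1 (−0.03). In middle-aged SR flies they were trpl (−0.60), CdsA (−0.43), inaD (−0.33) and stops (−0.33), and in old SR flies CdsA (−0.78), ninaG (−0.53), Calx (−0.50), stops (−0.37), rdgA (−0.31) and Galphaq (−0.02). On average they were santa-maria (−0.95), inaE (−0.91), CdsA (−0.76), ninaG (−0.58), trpl (−0.44), Calx (−0.42), stops (−0.34), rdgA (−0.26), chp (−0.12), Galphaq (−0.10) and Arr2 (−0.09). For overfeeding they were CdsA (0.51) and ninaB (0.44) in middle-aged SR flies and ninaG (0.28), stops (0.24), Gbeta76C (0.15) and Calx (0.06) on average. For line on optimal food at middle age they were Arr2 (−0.01) and stops (−0.01). For age on average they were Gbeta76C (−0.21), laza (−0.21), Calx (−0.20), inaD (−0.18) and chp (−0.14). With the germline covariate trpl (−0.02) for age on optimal food in C flies and Gbeta76C (−0.24) and laza (−0.24) for age on average reversed. For malnutrition with arrays centred on the neuronal list, the median probe set gave −1.21 in middle-aged C and −0.99 in old C flies. It gave −0.61 in middle-aged SR and −1.01 in old SR flies, and −0.96 on average.

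Whole-body arrays do not separate eye from other tissue, and the dimmest gene, ninaD, lay near or under the array medians. Each line was 1 population.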

Other observations

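A further list of 32 genes known from the fly eye, of which 25 were measured, was followed in the 4 averaged comparisons. On malnutrition 16 of the 25 rose and 2 fell, with a median of 0.22, against 18.2% and 13.5% of all probe sets and beside a rise in 19 of the 20 neuronal genes, whose part was not tested. Hdc, the histidine decarboxylase that makes the photoreceptor's transmitter, rose by 1.17 ± 0.11 (limma, adjusted p = 1.4e-11), rtp, which encodes retinophilin, by 1.06 ± 0.10 (adjusted p = 7.47e-11), t, the tan hydrolase that recovers histamine, by 0.75 ± 0.12 (adjusted p = 5.61e-06), eys, a protein of the space between the photoreceptor membranes, by 0.73 ± 0.09 (adjusted p = 1.31e-08) and PIP5K59B, a phosphoinositide kinase, by 0.72 ± 0.11 (adjusted p = 5.87e-07). st, the scarlet transporter of eye pigment precursors, fell by 1.04 ± 0.09 (adjusted p = 4.59e-12). Of 7 measured antennal genes 2 rose and 1 fell, with a median of 0.01, near the shares of all probe sets.

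On overfeeding 2 of the 25 rose, a share like the 8.11% of all probe sets, and 5 fell, against 8.18%. rtp fell by 0.44 (adjusted p = 0.00491), PIP5K59B by 0.30 (adjusted p = 0.0459), CarT, the carcinine transporter, by 0.26 (adjusted p = 0.0125), Pis, the phosphatidylinositol synthase, by 0.23 (adjusted p = 0.00123) and oc, a homeodomain factor of photoreceptors, by 0.22 (adjusted p = 0.0197), and Pld, phospholipase D, rose by 0.26 (adjusted p = 0.0104). With age 6 rose, against 8.86% of all probe sets, and 3 fell, near the share of 9.32%. Among them rtp gave 0.28 (adjusted p = 0.0176), CarT 0.26 (adjusted p = 0.00189), oc 0.26 (adjusted p = 0.000542) and e, the ebony enzyme that conjugates histamine, 0.18 (adjusted p = 0.0262), while Gbeta5, a G protein beta subunit, gave −0.25 (adjusted p = 0.00224) and Pld −0.24 (adjusted p = 0.0027). Between the lines 2 were higher and 4 lower in SR flies, against 11.4% and 8.80%. Cpr72Ec, a cuticle protein of the corneal lens, was lower by 1.30 ± 0.12 (adjusted p = 3.35e-11), where retinin, another lens protein, was higher. Gbeta5 was lower by 0.31 (adjusted p = 8.31e-05), se, an enzyme of eye pigment synthesis, by 0.25 (adjusted p = 5.31e-05) and Gprk1, a receptor kinase, by 0.23 (adjusted p = 1.74e-06), while rdhB, a retinol dehydrogenase, was higher by 0.28 (adjusted p = 0.00729) and st by 0.27 (adjusted p = 0.00752).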
